A study of Danio rerio with 11 samples.

Results

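The genes described here are the heat shock proteins, the DnaJ proteins and the heat shock factors of zebrafish (Danio rerio), read from ovarian follicles of females with mutations in the gonadotropin system. Members were chosen by name. Gene names of the count table that begin with hsp followed by a letter or digit (except hspg), with dnaja, dnajb or dnajc, or with hsf and a digit were taken, which gave 88 of 35889 genes. Of these, 77 had at least 10 counts in at least 3 libraries and were kept, and all 77 passed the expression filter of the test. The other 11 were almost silent. They are dnajb5, dnajb13, dnajc22, hsf4, hspa4l, hspb7, hspb9, hspb11 and hspb15, which had between 5 and 80 counts each over all 11 libraries, and hspb2 and hspb3, which had 0 counts in every library. The pattern also takes in genes that are not chaperones, among them hspbap1, named for binding a small heat shock protein, and hsf2bp, named for binding a heat shock factor.

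Heat shock proteins bind unfolded stretches of other proteins and keep them from aggregating. Hsp70 works in cycles of ATP hydrolysis. DnaJ proteins deliver clients and start the hydrolysis, and nucleotide exchange factors such as Hsp110 and Sil1 reset the cycle. Hsp90 takes over partly folded clients, including the receptors of steroid hormones. Constitutive members serve ordinary protein synthesis, while inducible members are switched on by the transcription factor Hsf1 when unfolded proteins accumulate. The endoplasmic reticulum has its own set, led by Hspa5 (BiP) and Hsp90b1 (Grp94), which folds secreted and membrane proteins. The mitochondrion has another, with Hspa9, Hspd1 and Hspe1. In a large oocyte, maternal chaperone mRNA is part of the store that the embryo inherits.

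The 3 genotypes were compared in adult females kept at 28 °C, at 180 days after fertilisation. The fshb/lhcgr mutants (4 libraries) were fshb-/-;lhb+/-;fshr+/-;lhcgr-/-. They lacked both copies of fshb, the beta subunit of follicle-stimulating hormone, and of lhcgr, the receptor for luteinising hormone. The lhb/lhcgr mutants (4 libraries) were fshb+/-;lhb-/-;fshr+/-;lhcgr-/-, and so lacked lhb, the beta subunit of luteinising hormone, together with lhcgr. The controls (3 libraries) were not wild type but fshb+/-;lhb+/-;fshr+/-;lhcgr+/-. All 3 groups were therefore heterozygous for fshr, the receptor for follicle-stimulating hormone. The material was fully grown follicles above 650 µm, retained by a 600 µm filter and picked by hand, which hold the oocyte and the somatic cells around it. In such bulk samples, fewer cells of a type and less RNA per cell cannot be told apart. The labels state neither the kind of each allele nor that replicates come from separate fish, so p-values reflect no more than the spread of these libraries, which may be technical.

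Libraries held between 14179252 counts (fshb/lhcgr mutant 3) and 25484718 counts (lhb/lhcgr mutant 3), and the 9 others lay between 15233928 and 15805763. Of the mutated genes, lhb had 47, 25, 97 and 61 counts in the fshb/lhcgr mutants, then 20, 160, 10 and 18 in the lhb/lhcgr mutants, against 294, 537 and 452 in the controls. The lhb counts did not tell the mutants apart. The fshb/lhcgr mutants were lhb+/- like the controls, yet all lay below them. At 160 counts, lhb/lhcgr mutant 2 lay above every fshb/lhcgr mutant. The lhcgr gene kept between 1645 and 5051 counts in every library, and fshb reached at most 11, so neither of these counts tells the genotypes apart. Detection alone does not identify the tissue, since the markers of other cell types given below were detected too. Every one of 8 oocyte markers and 9 granulosa and theca markers was detected. Their summed expression was 3704 to 4114 CPM (oocyte) and 663 to 1054 CPM (granulosa and theca) in the fshb/lhcgr mutants, 2547 to 3730 and 490 to 677 CPM in the lhb/lhcgr mutants, and 2936 to 4120 and 655 to 1375 CPM in the controls. CPM stand for counts scaled to 1e+06 per library with TMM factors. The members together took 1.00% to 1.15% of all counts in the fshb/lhcgr mutants, 0.969% to 1.1% in the lhb/lhcgr mutants and 0.967% to 1.17% in the controls.

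Chaperone mRNA was dominated by a few genes. Levels were compared between genes as FPKM, which the authors computed per length. In the controls the members added up to 2990 FPKM, and 5 genes made up 59.1% of it. The most abundant was hspa5, the Hsp70 of the endoplasmic reticulum, at 699 ± 162 FPKM in the fshb/lhcgr mutants, 407 ± 56.8 FPKM in the lhb/lhcgr mutants and 548 ± 181 FPKM in the controls (SD, n = 4, 4 and 3, as for all levels below). Next came hsp90ab1, the constitutive cytosolic Hsp90, at 329 ± 29.0, 346 ± 51.8 and 384 ± 57.2 FPKM in the same order of groups. The Hsp90 of the endoplasmic reticulum, hsp90b1, had 438 ± 127 FPKM in the fshb/lhcgr mutants, 273 ± 15.4 in the lhb/lhcgr mutants and 358 ± 84.2 in the controls. Almost level with it was hspa8, the constitutive cytosolic Hsp70, at 383 ± 24.9, 352 ± 25.5 and 357 ± 46.5 FPKM. The fifth, dnaja2, a cytosolic DnaJ partner of Hsp70, was clearly apart from these at 113 ± 8.10, 96.4 ± 8.85 and 121 ± 11.3 FPKM. In the controls hsp90ab1, hsp90b1 and hspa8 lay within 1 SD of each other. The median member had 8.82 FPKM in the controls, and the lowest, hsf5, had 0.303 FPKM.

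**Figure D1:**
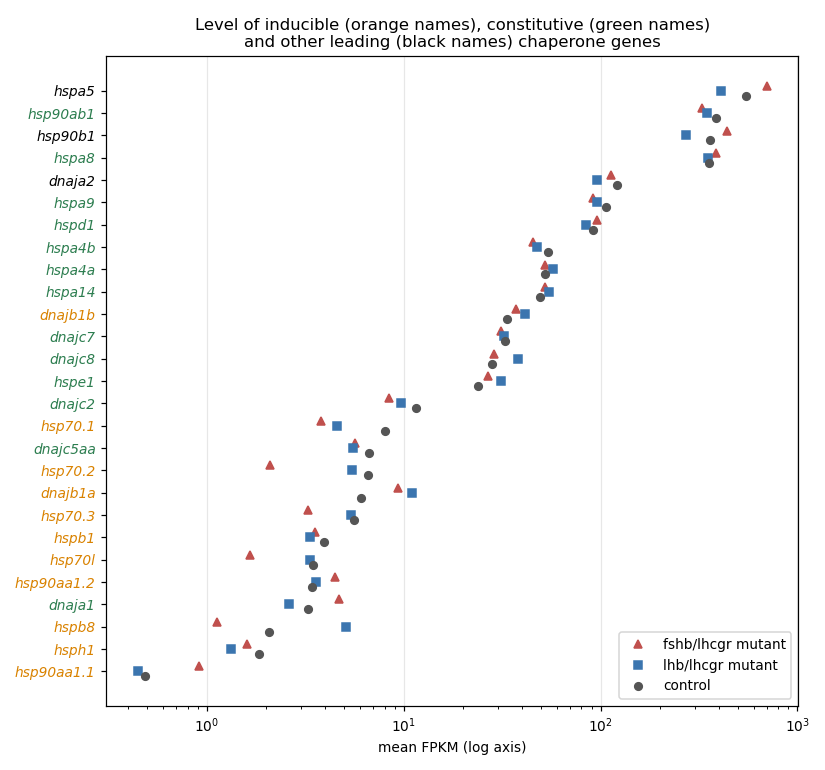
Mean FPKM (log axis) of the 11 kept inducible members, the 13 kept constitutive members and 3 other leading members in fshb/lhcgr mutants (triangles), lhb/lhcgr mutants (squares) and controls (circles). The constitutive hsp90ab1 and hspa8 lie at 329 FPKM or more in each group, while every inducible member except dnajb1b lies at or below 11 FPKM; the levels are means, with the spread given in the text for the leading genes.

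A pair of lists was set beside each other, one of inducible and one of constitutive chaperones. Both were written from textbook knowledge but with earlier results of these data known, so they serve as a description. Of 17 inducible genes listed, 15 are named in the table and 11 were kept, and of 16 constitutive genes listed, 13 are named in the table and all 13 were kept. Summed FPKM of the inducible list were 68.9 ± 17.9 in the fshb/lhcgr mutants, 84.8 ± 12.5 in the lhb/lhcgr mutants and 75 ± 11.8 in the controls, ranges that overlap. The constitutive list summed to 1154 ± 77.1 FPKM in the fshb/lhcgr mutants, 1157 ± 72.6 in the lhb/lhcgr mutants and 1201 ± 25 in the controls. The largest share of the inducible sum came from dnajb1b, the cytosolic DnaJ that works with Hsp70 in heat shock, which alone had 37.0 ± 7.23, 41.2 ± 5.17 and 33.5 ± 6.69 FPKM. Replicates differed more in the inducible genes, with a median coefficient of variation of 45.4%, 29.7% and 41.2% against 13.0%, 11.6% and 15.6% in the constitutive genes (fshb/lhcgr mutants, lhb/lhcgr mutants, controls). The inducible genes also had fewer reads, with median counts of 89.8, 257 and 146 against 2040.5, 2810 and 2333, and the part of read number in that spread was not tested.

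No inducible or constitutive member was called in any comparison by edgeR's quasi-likelihood test, in which a gene is called when its p, adjusted by Benjamini-Hochberg over 19421 genes, is under 0.05. For fshb/lhcgr mutants against controls, 2 of 11 inducible and 1 of 13 constitutive genes had an unadjusted p under 0.05, a level that 11.8% of all genes reached, and 0.0721% of all genes were called. The same counts were 2 and 0 for lhb/lhcgr mutants against controls, where 24.9% of all genes reached that level and 7.34% were called. Between the fshb/lhcgr and the lhb/lhcgr mutants they were 2 and 1, beside 18% of all genes at that level and 2.37% called. DESeq2 and limma-voom called no inducible or constitutive gene against the controls either, while DESeq2 called hspb8 and hsp70.2 between the mutants. In that comparison DESeq2 called 7.21% of all genes. Median log2 differences of the inducible genes were -0.20, -0.06 and -0.22 in the order just used, and of the constitutive genes 0.00, -0.11 and -0.07, beside -0.03, 0.01 and -0.02 for all genes tested. With libraries scaled by size only, the inducible median for lhb/lhcgr mutants against controls became 0.03 (all genes 0.12), and with a correction for gene length the constitutive median became 0.07. The inducible medians also moved with single libraries. For lhb/lhcgr mutants against controls the median ran from -0.37 without control 1 to 0.25 without control 3. For fshb/lhcgr mutants against controls it ran from -0.40 without fshb/lhcgr mutant 2 to -0.16 without fshb/lhcgr mutant 3, and between the mutants from -0.36 without fshb/lhcgr mutant 2 to -0.08 without fshb/lhcgr mutant 1.

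The heat-inducible cytosolic Hsp70 is encoded by hsp70.1, hsp70.2, hsp70.3 and hsp70l, near-identical copies between which reads may be split or shared. Expression of hsp70.1 was 5.05, 11.6, 5.63 and 13.4 CPM in the fshb/lhcgr mutants, 6.88, 11.9, 11.9 and 12 CPM in the lhb/lhcgr mutants, and 13.5, 25.6 and 17.0 CPM in the controls. All 8 mutant libraries thus lay below all 3 controls, the nearest pair being 13.4 and 13.5 CPM. The log2 difference from the controls was -1.07 (SE 0.37, edgeR adjusted p = 0.311) for the fshb/lhcgr mutants and -0.81 (SE 0.37, adjusted p = 0.191) for the lhb/lhcgr mutants, and neither passed the threshold. The second copy, hsp70.2, had 4.03, 6.79, 2.32 and 6.44 CPM in the fshb/lhcgr mutants, 4.95, 13.4, 17.8 and 14.9 CPM in the lhb/lhcgr mutants and 6.36, 25.3 and 14.6 CPM in the controls. Here control 1 lay inside the ranges of both mutants and control 3 inside that of the lhb/lhcgr mutants. Only lhb/lhcgr mutant 1 of its group lay among the fshb/lhcgr values. The differences were -1.65 (SE 0.51, edgeR adjusted p = 0.282) for fshb/lhcgr mutants against controls and -1.38 (SE 0.48, adjusted p = 0.145) against lhb/lhcgr mutants, and DESeq2 put the second past the threshold (adjusted p = 0.0425).

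The other copies were spread more widely. For hsp70.3 the values were 5.32 to 11.4 CPM in the fshb/lhcgr mutants, 8.45 to 20 in the lhb/lhcgr mutants and 6.56 to 21.8 in the controls. For hsp70l they were 1.54 to 8.70, 5.54 to 11 and 3.35 to 14.7 CPM in the same groups. Added together, the 4 copies reached 25.5 ± 10.4 CPM in the fshb/lhcgr mutants (16.0 to 34.9), 44.3 ± 13.0 CPM in the lhb/lhcgr mutants (27.2 to 57.5) and 55.8 ± 24.7 CPM in the controls (29.8 to 79.0). The lowest control lay inside both mutant ranges, so the sum did not separate the groups. Against the constitutive hspa8, at 2483 to 2938, 2281 to 2684 and 2275 to 2891 CPM, all of these are small amounts of mRNA.

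**Figure D2:**
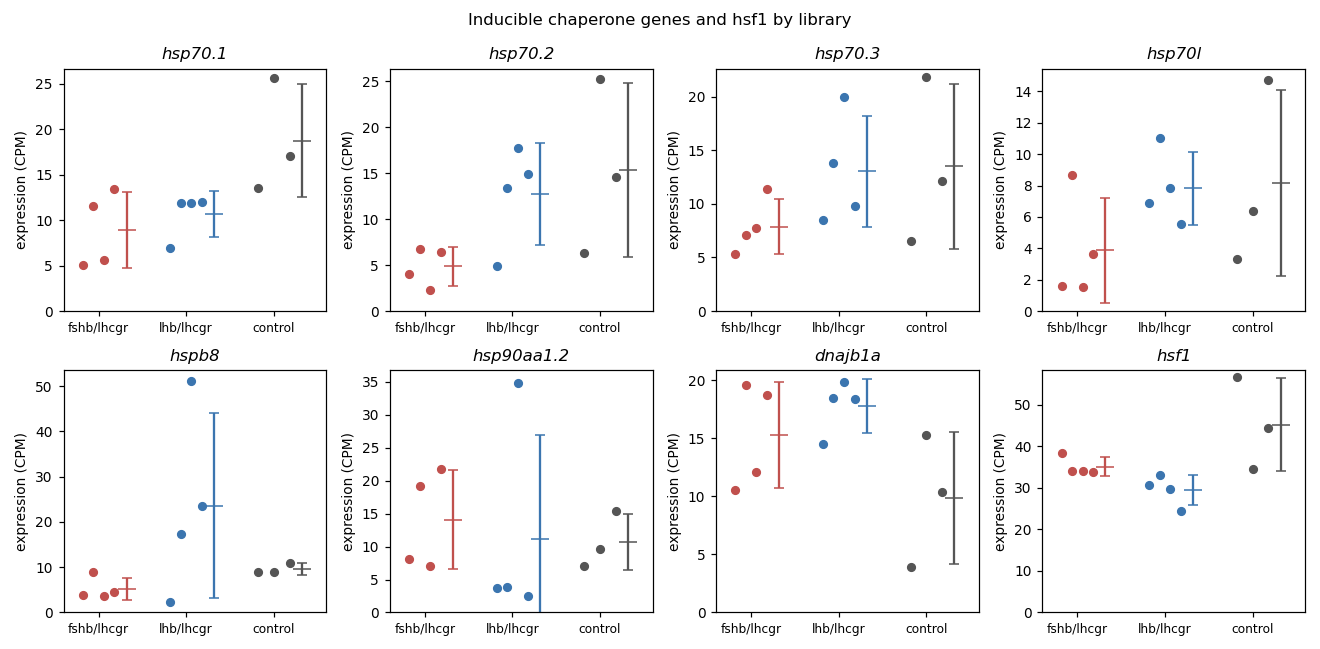
CPM of 7 inducible members and of hsf1 in each library (points) with the mean and SD of each group (bars, cut at 0 where they would cross it); fshb/lhcgr mutants left, lhb/lhcgr mutants in the middle, controls right. All 8 mutant libraries of hsp70.1 lie below the 3 controls, and 1 lhb/lhcgr library carries the high value of hsp90aa1.2 (34.8 CPM).

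One of the small heat shock proteins, hspb8, a partner of Bag3 in the clearance of misfolded proteins, had 3.75, 8.90, 3.70 and 4.46 CPM in the fshb/lhcgr mutants, 2.29, 17.2, 51.1 and 23.5 CPM in the lhb/lhcgr mutants, and 8.90, 8.87 and 11 CPM in the controls. In 3 of the 4 lhb/lhcgr libraries it exceeded every other library, and the remaining one was the lowest of all 11. Between the mutants its log2 difference was -2.18 (SE 0.66, edgeR adjusted p = 0.111). Without lhb/lhcgr mutant 1 it was -2.56 (adjusted p = 0.00848) and without lhb/lhcgr mutant 3 -1.46 (adjusted p = 0.276). For hspb8 in lhb/lhcgr mutants against controls the difference was 1.30 (SE 0.71, adjusted p = 0.289), which became 1.68 without lhb/lhcgr mutant 1 (adjusted p = 0.0487) and 0.58 without lhb/lhcgr mutant 3. The classical small protein hspb1 stayed between 4.59 and 9.86 CPM in every library, with no difference beyond 0.23 in size. The third small member, hspb6, was at the edge of detection, with 17, 0, 13 and 3 counts in the fshb/lhcgr mutants, 0, 0, 16 and 2 in the lhb/lhcgr mutants, against 30, 15 and 28 in the controls. Its log2 difference of -3.00 between lhb/lhcgr mutants and controls (SE 1.22, edgeR adjusted p = 0.145) was the most negative of all members.

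The cytosolic Hsp90 genes placed on the inducible list were low. For hsp90aa1.2 the libraries held 8.19, 19.2, 7.02 and 21.7 CPM in the fshb/lhcgr mutants, 3.68, 3.85, 34.8 and 2.53 CPM in the lhb/lhcgr mutants, and 7.09, 9.65 and 15.4 CPM in the controls. Lhb/lhcgr mutant 3 alone decided its group. With it, hsp90aa1.2 differed by 0.08 from the controls and by 0.31 between fshb/lhcgr and lhb/lhcgr mutants (edgeR adjusted p = 0.972 and 0.886). Without it, the values were -1.67 (adjusted p = 0.0620) and 2.06 (adjusted p = 0.0629). In zebrafish hsp90aa1.1 is the muscle Hsp90 that serves myosin folding, and it had 0.849 to 4.22 CPM in the fshb/lhcgr mutants, 1.03 to 1.39 in the lhb/lhcgr mutants and 0.669 to 2.02 in the controls. At 0.90 on the log2 scale (SE 0.60, adjusted p = 0.590) it was the most positive member for fshb/lhcgr mutants against controls. The constitutive hsp90ab1 ran from 1610 to 1993 CPM, 1642 to 2342 CPM and 1930 to 2539 CPM in the fshb/lhcgr mutants, lhb/lhcgr mutants and controls, with differences of -0.22 and -0.15 from the controls (adjusted p = 0.651 and 0.646).

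Of the inducible DnaJ genes, dnajb1a had 10.6 to 19.6 CPM in the fshb/lhcgr mutants, 14.5 to 19.8 CPM in the lhb/lhcgr mutants and 3.95 to 15.3 CPM in the controls, with edgeR adjusted p = 0.540 and 0.180 for the mutants against the controls. Its paralog dnajb1b and the Hsp110 gene hsph1, whose product is a nucleotide exchange factor, showed no called difference either. The constitutive Hsp110 genes hspa4a and hspa4b differed from the controls by at most 0.27 in either mutant. Among the constitutive members, dnaja1, a cytosolic DnaJ that farnesylation ties to membranes in mammals, had the largest difference between the mutants. Its values were 12.1, 7.38, 9.65 and 18.3 CPM in the fshb/lhcgr mutants and 4.35, 8.07, 8.99 and 4.82 CPM in the lhb/lhcgr mutants (log2 difference 0.85, SE 0.34, adjusted p = 0.197), and one fshb/lhcgr library lay inside the lhb/lhcgr range. Ribosome-associated dnajc2 differed by -0.46 between fshb/lhcgr mutants and controls (SE 0.21, adjusted p = 0.420), and hspa14, another ribosome-associated member, by 0.08 (adjusted p = 0.859). The Hsp70 and Hsp90 co-chaperone dnajc7, the splicing-associated dnajc8 and the vesicle protein dnajc5aa had adjusted p-values of at least 0.257 against the controls.

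Hsf1, the main activator of heat shock genes, had 38.5, 34.2, 34.0 and 33.8 CPM in the fshb/lhcgr mutants, 30.7, 33.0, 29.9 and 24.4 CPM in the lhb/lhcgr mutants, and 56.8, 34.6 and 44.4 CPM in the controls. All lhb/lhcgr libraries lay below all others, while the fshb/lhcgr libraries reached past the lowest control. The difference of lhb/lhcgr mutants from controls was -0.62 (SE 0.19, edgeR adjusted p = 0.0615). It passed with DESeq2 (adjusted p = 0.0257) and without control 2 (-0.78, adjusted p = 0.0297). All genes were called at 14% and 7.16% in these settings, beside 7.34% in the main fit. With 1 library left out, the hsf1 difference lay between -0.78 and -0.42, with an edgeR adjusted p of up to 0.261. Its relative hsf2, which acts in gametogenesis and development, spanned 22.9 to 40.7, 25 to 33.9 and 15 to 38.2 CPM in the fshb/lhcgr mutants, lhb/lhcgr mutants and controls, and hsf5 stayed under 1 CPM in every library. The binding partner gene hsf2bp, which takes part in meiotic recombination in mice, had 4.48 to 5.94 CPM in the fshb/lhcgr mutants, 6.91 to 8.91 CPM in the lhb/lhcgr mutants and 3.69 to 6.63 CPM in the controls. The lhb/lhcgr libraries lay above all others, at log2 differences of 0.53 from the controls and -0.65 for fshb/lhcgr against lhb/lhcgr mutants (adjusted p = 0.306 and 0.237), neither past the threshold.

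Over all 77 members, 3 were called between lhb/lhcgr mutants and controls, which is 3.90% of them beside 7.34% of all genes. Of these, hspbap1 and dnajc9 rose and dnajb11 fell, beside 2.89% of all genes called higher and 4.45% called lower. Between fshb/lhcgr mutants and controls 0 members were called by edgeR, DESeq2 or limma-voom, where 0.0154% of all genes were called higher and 0.0566% lower, and 9 members had an unadjusted p under 0.05 beside 11.8% of all genes. Over all genes DESeq2 called 278 there (1.43%) and limma-voom 5 (0.0257%). Between the mutants 1 member was called, dnajb11, as higher, which is 1.30% beside 2.37% of all genes (1.45% higher and 0.917% lower). At an unadjusted p under 0.05 stood 18 members for lhb/lhcgr mutants against controls and 12 between the mutants, beside 24.9% and 18% of all genes. Median log2 differences of the members were -0.14 for lhb/lhcgr mutants against controls (27 positive and 50 negative), 0.04 for fshb/lhcgr mutants against controls (41 and 36) and -0.01 between the mutants (37 and 40). Groups did not overlap in 15 members for lhb/lhcgr mutants against controls (5 higher, 10 lower), beside 22.8% of all genes (11.2% higher, 11.6% lower). That count was 5 for fshb/lhcgr mutants against controls (2 higher, 3 lower), beside 10.4% of all genes (5.26% and 5.16%), and 11 between the mutants (6 higher, 5 lower), beside 12.9% (6.54% and 6.38%). The comparisons with the controls share the 3 control libraries, and those with the lhb/lhcgr mutants share these 4 libraries.

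**Figure D3:**
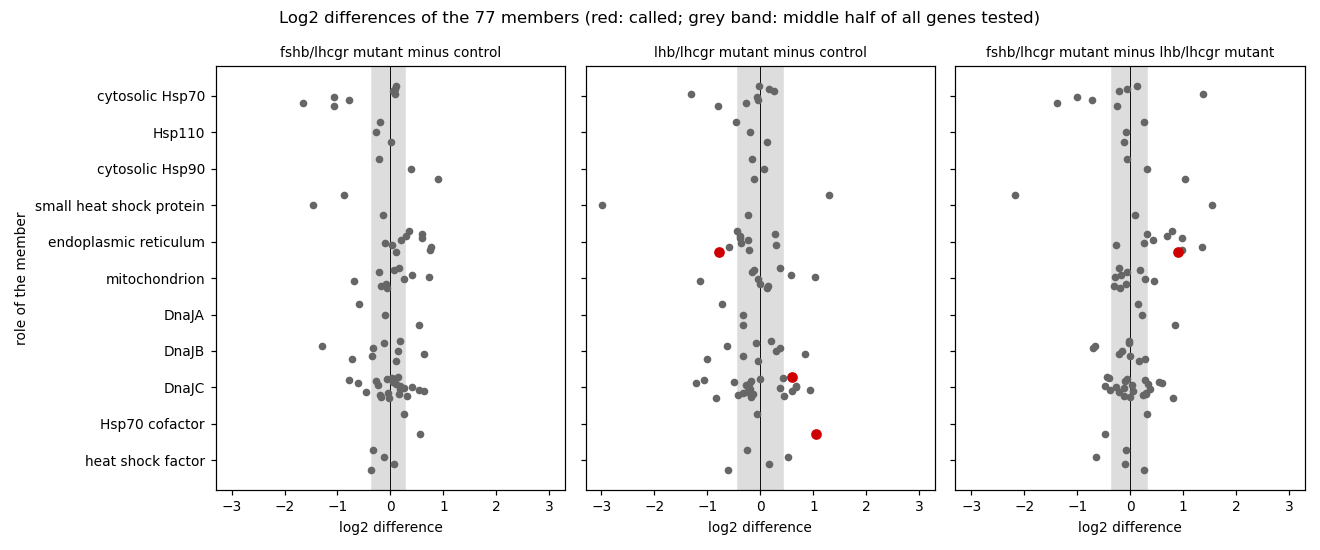
Log2 differences of the 77 members in the 3 comparisons, each point 1 gene, arranged by role from cytosolic Hsp70 (top) to heat shock factors and hsf2bp (bottom); red points were called and the grey band spans the quartiles of all genes tested. The members of the endoplasmic reticulum lie mostly right of 0 in the comparison between the mutants (9 of 10), and dnajb11 is called there and, as lower, for lhb/lhcgr mutants against controls. The row of Hsp70 cofactors also holds hspbap1, which is named for binding a small heat shock protein.

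The called member of the endoplasmic reticulum was dnajb11 (ERdj3), a DnaJ protein of the lumen that hands nascent and misfolded proteins to BiP. Its expression was 79.9, 95.6, 112 and 106 CPM in the fshb/lhcgr mutants, 46.7, 57.5, 52.5 and 54.7 CPM in the lhb/lhcgr mutants, and 78.9, 108 and 87.5 CPM in the controls. All 4 lhb/lhcgr libraries lay below every other library, and the fshb/lhcgr libraries and controls covered similar ranges. In lhb/lhcgr mutants dnajb11 fell by 0.79 on the log2 scale relative to controls (SE 0.16, edgeR adjusted p = 0.0152). Between fshb/lhcgr and lhb/lhcgr mutants it was higher by 0.89 (SE 0.15, adjusted p = 0.00958), and from the controls the fshb/lhcgr mutants differed by 0.11 (SE 0.16, adjusted p = 0.846). The first call was lost without lhb/lhcgr mutant 4 (adjusted p = 0.0518) and the second held without any 1 library. Without both lhb/lhcgr mutant 3 and 4, whose counts are the closest pair, dnajb11 was not called in either comparison (adjusted p = 0.0975 and 0.124).

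Its partner hspa5 had 1130, 1716, 2015 and 1798 CPM in the fshb/lhcgr mutants, 893, 1139, 1017 and 823 CPM in the lhb/lhcgr mutants, and 802, 1522 and 1599 CPM in the controls. The mutants overlapped by 1 library, and control 1 was as low as the lhb/lhcgr libraries. Between the mutants the log2 difference was 0.78 (SE 0.23, edgeR adjusted p = 0.0936), which passed the threshold without control 1 (adjusted p = 0.0323) and with DESeq2 (adjusted p = 0.0182). More of all genes were called in these settings too, 3.91% and 7.21% beside 2.37% in the main fit. With 1 library left out, the hspa5 difference lay between 0.68 and 0.93, with an edgeR adjusted p of up to 0.245. For hsp90b1 the libraries had 956, 1177, 1740 and 1054 CPM in the fshb/lhcgr mutants, 786, 817, 753 and 712 CPM in the lhb/lhcgr mutants, and 741, 1059 and 1223 CPM in the controls. Here the mutants did not overlap, again with control 1 among the lhb/lhcgr values. The difference between the mutants was 0.68 (SE 0.20, edgeR adjusted p = 0.0951), and hsp90b1 likewise passed without control 1 (adjusted p = 0.0493) and with DESeq2 (adjusted p = 0.0212). With 1 library left out, its difference lay between 0.47 and 0.79, with an edgeR adjusted p of up to 0.244.

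**Figure D4:**
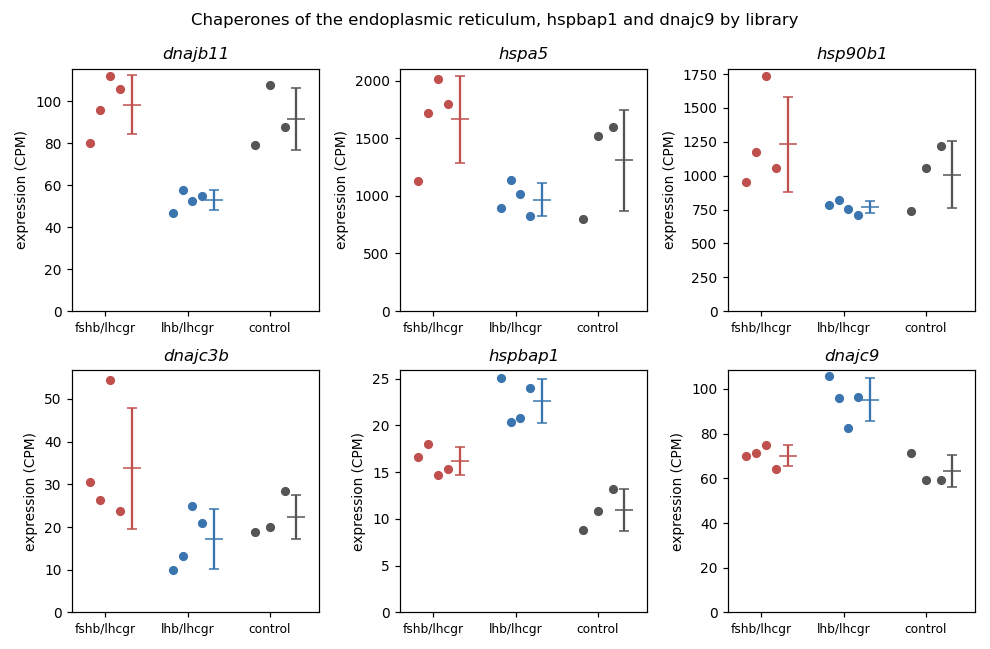
CPM of 4 chaperones of the endoplasmic reticulum (dnajb11, hspa5, hsp90b1, dnajc3b) and of hspbap1 and dnajc9 in each library (points) with the mean and SD of each group (bars); fshb/lhcgr mutants left, lhb/lhcgr mutants in the middle, controls right. The lhb/lhcgr libraries are lowest for dnajb11 (46.7 to 57.5 CPM) and highest for hspbap1 (20.4 to 25.1 CPM).

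In all, 10 members were placed in the endoplasmic reticulum by their known role, a grouping made after the values had been seen, so it is given as a description. Their median log2 difference was 0.32 for fshb/lhcgr mutants against controls (9 positive, 1 negative), -0.37 for lhb/lhcgr mutants against controls (2 positive, 8 negative) and 0.73 between the mutants (9 positive, 1 negative), beside -0.03, 0.01 and -0.02 for all genes. The median between the mutants lay between 0.50 (without fshb/lhcgr mutant 3) and 0.86 (without fshb/lhcgr mutant 1) when 1 library was left out. That of the fshb/lhcgr mutants against controls shrank to 0.10 without control 1 and 0.11 without fshb/lhcgr mutant 3, and that of the lhb/lhcgr mutants to -0.24 without control 3. The stress-induced DnaJ genes dnajb9a and dnajb9b (ERdj4), dnajc3a and dnajc3b (P58IPK), and the reductase partner dnajc10 (ERdj5) were all positive between the mutants. Of these, dnajb9b had 5.94, 8.83, 25.5 and 3.65 CPM in the fshb/lhcgr mutants, 3.02, 2.57, 6.43 and 5.06 CPM in the lhb/lhcgr mutants, and 5.22, 9.01 and 5.17 CPM in the controls. Its log2 difference of 1.35 between the mutants (SE 0.53, edgeR adjusted p = 0.197) owed much to fshb/lhcgr mutant 3, without which it was 0.52. For dnajb9a the difference of fshb/lhcgr mutants from controls was 0.75 (SE 0.51, adjusted p = 0.596) at 2.01 to 2.97 against 1.26 to 1.56 CPM, which do not overlap. The exception was dnajc1 (ERdj1), which sits at the ribosome on the membrane, with -0.27 between the mutants (adjusted p = 0.303). A DnaJ gene of the membrane that was grouped elsewhere, dnajb12b, named here after its values were seen, went the other way from the luminal genes in the fshb/lhcgr mutants. It had 19.7, 9.29, 15.4 and 26.2 CPM there, 16.3, 11.2, 15 and 15.8 CPM in the lhb/lhcgr mutants and 30.9, 27.0 and 29.7 CPM in the controls, with differences of -0.73 and -1.0 from the controls (edgeR adjusted p = 0.362 and 0.0508). Both DESeq2 and limma-voom called dnajb12b for lhb/lhcgr mutants against controls. Its relatives dnajb12a and dnajb14 differed by 0.11 and -0.34 between fshb/lhcgr mutants and controls, by -0.05 and -0.33 between lhb/lhcgr mutants and controls, and by 0.16 and -0.01 between the mutants. The medians depend on which members are counted. With these 3 and the membrane DnaJ genes dnajc14, dnajc16, dnajc16l and dnajc18 added, a wider set chosen after the values were seen, the 17 genes had medians of 0.11 for fshb/lhcgr mutants against controls, -0.34 for lhb/lhcgr mutants against controls and 0.29 between the mutants (13 positive, 4 negative).

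The 2 members called higher in lhb/lhcgr mutants than in controls act outside the endoplasmic reticulum. The first, hspbap1, encodes a JmjC-domain protein that binds Hspb1 and lowers its activity in mammals. It had 16.6, 18.1, 14.7 and 15.3 CPM in the fshb/lhcgr mutants, 25.1, 20.4, 20.8 and 24.0 CPM in the lhb/lhcgr mutants, and 8.77, 10.9 and 13.2 CPM in the controls. The 3 groups did not overlap, with the lhb/lhcgr mutants highest and the controls lowest. Relative to controls hspbap1 rose by 1.04 on the log2 scale in lhb/lhcgr mutants (SE 0.22, edgeR adjusted p = 0.0160), while 0.56 in fshb/lhcgr mutants was not called (SE 0.22, adjusted p = 0.353), nor was -0.48 between the mutants (SE 0.20, adjusted p = 0.214). The hspbap1 call was lost without control 1 (adjusted p = 0.0636), without lhb/lhcgr mutant 4 (0.0562) and without both lhb/lhcgr mutant 3 and 4 (0.0935).

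The second, dnajc9, is a DnaJ protein that chaperones histones H3 and H4 in mammals. Its libraries held 69.9, 71.4, 75.1 and 64.3 CPM in the fshb/lhcgr mutants, 106, 96.0, 82.3 and 96.4 CPM in the lhb/lhcgr mutants, and 71.4, 59.2 and 59.4 CPM in the controls. The lhb/lhcgr libraries lay above all others. In these mutants dnajc9 rose by 0.59 on the log2 scale relative to controls (SE 0.15, edgeR adjusted p = 0.0312), and between fshb/lhcgr and lhb/lhcgr mutants it differed by -0.44 (SE 0.13, adjusted p = 0.101). The call was fragile. It was lost without control 2 (0.0710), control 3 (0.0935), lhb/lhcgr mutant 1 (0.0749), 2 (0.0567) or 4 (0.0867), in a fit of only the groups compared (0.0613) and after the correction for gene length (0.35, adjusted p = 0.181).

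The 10 mitochondrial members had median log2 differences of 0.00 for fshb/lhcgr mutants against controls, 0.06 for lhb/lhcgr mutants against controls and -0.12 between the mutants, and none was called. The mitochondrial Hsp70 gene hspa9 had 390 to 479 CPM in the fshb/lhcgr mutants, 401 to 514 in the lhb/lhcgr mutants and 409 to 626 in the controls. The chaperonin gene hspd1 (Hsp60) had 209 to 312, 233 to 264 and 255 to 284 CPM, and its lid hspe1 (Hsp10) 43.3 to 56.4, 47.7 to 64.8 and 38.8 to 51.7 CPM, with overlapping groups throughout. An import component, dnajc19, a DnaJ subunit of the import motor, had 5.80, 5.80, 12.6 and 7.92 CPM in the fshb/lhcgr mutants, 7.37, 9.78, 11.9 and 10.2 CPM in the lhb/lhcgr mutants, and 4.02, 4.61 and 5.86 CPM in the controls. The lhb/lhcgr libraries lay above all controls, with a log2 difference of 1.02 (SE 0.34, edgeR adjusted p = 0.0800, and 0.0260 with DESeq2). Replicates were far apart in dnajc11b, which is tied to the inner membrane complex MICOS in mammals and which had 4.71, 11.7, 10.3 and 3.53 CPM in the fshb/lhcgr mutants, 10.1, 9.05, 1.82 and 1.2 CPM in the lhb/lhcgr mutants, and 24.0, 8.87 and 3.59 CPM in the controls. Its differences from the controls were -0.68 and -1.14 (SE 0.78 each, edgeR adjusted p = 0.778 and 0.408).

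The remaining 34 DnaJ genes of the A, B and C classes had 1 called member in any comparison, dnajc9, in lhb/lhcgr mutants against controls, where 7.34% of all genes were called. Their medians were 0.01 for fshb/lhcgr mutants against controls, -0.17 for lhb/lhcgr mutants against controls and -0.01 between the mutants. At the low end, dnajb4 had 5, 7, 4 and 11 counts in the fshb/lhcgr mutants, 13, 11, 20 and 11 in the lhb/lhcgr mutants, against 13, 26 and 10 in the controls (-1.29 for fshb/lhcgr mutants against controls, SE 0.66, edgeR adjusted p = 0.462). The gene dnajc6 (auxilin), which helps Hsp70 strip clathrin from vesicles and is also named after its values were seen, had 14.0, 15, 9.72 and 22.6 CPM in the fshb/lhcgr mutants, 20.4, 8.80, 11.3 and 9.88 CPM in the lhb/lhcgr mutants, and 32.4, 23.1 and 23.8 CPM in the controls. All 8 mutant libraries lay below the controls, with differences of -0.78 (SE 0.33, adjusted p = 0.379) and -1.07 (SE 0.33, adjusted p = 0.0620). DESeq2 and limma-voom called dnajc6 in the lhb/lhcgr mutants. The vesicle gene dnajc5b, at 0.725 to 3.07, 0.334 to 1.47 and 1.39 to 2.91 CPM, differed by -1.22 between lhb/lhcgr mutants and controls (SE 0.65, adjusted p = 0.267). Of the atypical Hsp70 genes, hspa12a had 1.71 to 3.47 CPM in the fshb/lhcgr mutants, 0.724 to 1.45 CPM in the lhb/lhcgr mutants and 1.64 to 4.04 CPM in the controls. All lhb/lhcgr libraries of hspa12a lay below the other groups, at -1.30 against controls (SE 0.48, adjusted p = 0.112) and 1.38 for fshb/lhcgr against lhb/lhcgr mutants (SE 0.46, adjusted p = 0.128).

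Folding genes outside the name rule were read from 3 lists. Of 36 co-chaperones and other Hsf targets tested, 0 were called between fshb/lhcgr mutants and controls, 2 rose and 3 fell in lhb/lhcgr mutants against controls, and 3 were higher in fshb/lhcgr than in lhb/lhcgr mutants. All genes were called at 0.0721% in the first comparison, at 2.89% (higher) and 4.45% (lower) in the second and at 1.45% (higher) and 0.917% (lower) in the third. The list's median log2 differences were 0.09, 0.03 and -0.01. The 3 that fell and the 3 that were higher between the mutants were serpinh1a, serpinh1b and sil1. Both serpinh1 genes encode Hsp47, the collagen chaperone of the endoplasmic reticulum, and Sil1 is the nucleotide exchange factor of BiP. Expression of serpinh1a was 69.2, 81.3, 94.5 and 46.1 CPM in the fshb/lhcgr mutants, 10.4, 18.5, 22.2 and 16.9 CPM in the lhb/lhcgr mutants, and 50.2, 70.5 and 50.5 CPM in the controls. The highest lhb/lhcgr library lay well below the lowest other library. It fell by 1.75 relative to controls (SE 0.27, edgeR adjusted p = 0.00465) and was higher by 2.10 between the mutants (SE 0.26, adjusted p = 0.00193), and both calls held without any 1 library.

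For sil1 the values were 76.3, 89.2, 116 and 71.4 CPM in the fshb/lhcgr mutants, 49.1, 53.4, 48.7 and 52.0 CPM in the lhb/lhcgr mutants, and 83.1, 87.6 and 73.4 CPM in the controls. Again the lhb/lhcgr libraries were the lowest 4, with differences of -0.68 from the controls (SE 0.17, edgeR adjusted p = 0.0321) and 0.80 between the mutants (SE 0.16, adjusted p = 0.0222). The second copy serpinh1b, at 1.98 to 6.71, 0.734 to 1.2 and 2.74 to 4.68 CPM, differed by -1.94 from the controls (SE 0.45, adjusted p = 0.0240) and by 2.41 between the mutants (SE 0.44, adjusted p = 0.0131). The 2 that rose in lhb/lhcgr mutants were sugt1, an Hsp90 co-chaperone (0.62, SE 0.15, adjusted p = 0.0307), and hsbp1b, which encodes a binding protein of heat shock factor (0.64, SE 0.18, adjusted p = 0.0491). Against the controls the call of serpinh1b was lost without control 2 or any 1 of the 4 lhb/lhcgr libraries, that of sil1 without control 1, control 2 or any 1 of those 4, that of sugt1 without either control 1 or 2 or without lhb/lhcgr mutant 1 or 4, and that of hsbp1b without any 1 library except fshb/lhcgr mutant 4. Other settings ended calls against the controls as well: serpinh1b with limma-voom (adjusted p = 0.0563), sil1 with library size only (0.0510), sugt1 with only the groups compared (0.0702), and hsbp1b with RLE scaling, both other filters, limma-voom, only the groups compared or length offsets (0.0502 to 0.224). Between the mutants, serpinh1b was lost without lhb/lhcgr mutant 3 (adjusted p = 0.0523), and sil1 without lhb/lhcgr mutant 3, lhb/lhcgr mutant 4 or fshb/lhcgr mutant 3 (0.0596 to 0.0752).

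Of the 14 genes of the cytosolic chaperonin CCT and prefoldin, which fold actin and tubulin, 0 were called by edgeR in any comparison, and 2 in each had an unadjusted p under 0.05. All genes were called at 0.0721%, 7.34% and 2.37% and reached that p at 11.8%, 24.9% and 18% for fshb/lhcgr mutants against controls, lhb/lhcgr mutants against controls and the mutants against each other. Their medians were -0.09 for fshb/lhcgr mutants against controls, 0.19 for lhb/lhcgr mutants against controls and -0.18 between the mutants.

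Genes of folding and stress sensing in the endoplasmic reticulum formed the third list. Of 21 tested, 0 were called between fshb/lhcgr mutants and controls, 4 fell in lhb/lhcgr mutants against controls, and 4 were higher and 1 lower in fshb/lhcgr than in lhb/lhcgr mutants. The shares of all genes were again 0.0721%, then 4.45% lower, then 1.45% higher and 0.917% lower. Median log2 differences were 0.16 (15 positive, 6 negative), -0.17 (4 and 17) and 0.42 (19 and 2). The Hsp70-like exchange factor hyou1 (Grp170) had 848, 689, 1105 and 585 CPM in the fshb/lhcgr mutants, 372, 454, 372 and 391 CPM in the lhb/lhcgr mutants, and 583, 748 and 609 CPM in the controls. All 4 lhb/lhcgr libraries were lowest, and hyou1 was higher by 1.02 in fshb/lhcgr than in lhb/lhcgr mutants (SE 0.19, edgeR adjusted p = 0.0168). The disulfide isomerase gene pdia3 had 477, 471, 689 and 492 CPM in the fshb/lhcgr mutants, 198, 305, 269 and 287 CPM in the lhb/lhcgr mutants, and 361, 651 and 474 CPM in the controls. It fell by 0.90 relative to controls (SE 0.22, adjusted p = 0.0283) and was higher by 1.01 between the mutants (SE 0.21, adjusted p = 0.0239). The lectin chaperone gene calr3b (1.11, SE 0.22, adjusted p = 0.0196) and creld2 (0.81, SE 0.19, adjusted p = 0.0400), a secreted isomerase-like protein of the stress response, were also higher between the mutants.

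Stress sensor genes were among those that fell in lhb/lhcgr mutants against controls. They were eif2ak3 (Perk) at -0.75 (SE 0.18, edgeR adjusted p = 0.0287) and ern1 (Ire1) at -0.90 (SE 0.24, adjusted p = 0.0374), together with edem1, which marks glycoproteins for degradation, at -0.93 (SE 0.19, adjusted p = 0.0152). Another sensor gene of the list, atf6, was not called (-0.29, SE 0.22, edgeR adjusted p = 0.455). The transcription factor gene ddit3 (Chop), which drives the late stress response, was the 1 gene lower between the mutants. Its libraries held 4.57, 4.61, 7.02 and 5.45 CPM in the fshb/lhcgr mutants, 9.0, 16.8, 15 and 25.1 CPM in the lhb/lhcgr mutants, and 8.03, 23.4 and 18.3 CPM in the controls. The fshb/lhcgr libraries were the lowest 4, and the difference from the lhb/lhcgr mutants was -1.61 (SE 0.36, edgeR adjusted p = 0.0370), beside -1.61 from the controls (SE 0.38, adjusted p = 0.167). When 1 library was left out, the calls of this list between the mutants were lost for 2 libraries in calr3b (lhb/lhcgr mutant 3 and fshb/lhcgr mutant 3), 3 in hyou1 (lhb/lhcgr mutants 3 and 4 and fshb/lhcgr mutant 1) and 5 in pdia3 (lhb/lhcgr mutants 1, 3 and 4 and fshb/lhcgr mutants 1 and 3). For creld2 they were lost for 6 (lhb/lhcgr mutants 2, 3 and 4 and fshb/lhcgr mutants 1, 2 and 3) and for ddit3 for 7 (the same lhb/lhcgr libraries and all 4 fshb/lhcgr libraries), with adjusted p-values up to 0.137. Against the controls, edem1 was lost without control 1 (0.0580), pdia3 without control 2 or lhb/lhcgr mutant 1, 3 or 4, eif2ak3 without control 1 or any 1 lhb/lhcgr library, and ern1 without control 1, control 2, fshb/lhcgr mutant 1 or any 1 lhb/lhcgr library, with adjusted p-values up to 0.135. The ern1 call was also lost with library size only (0.0528), limma-voom (0.0536), only the groups compared (0.0617) or length offsets (0.154), that of eif2ak3 with length offsets (0.0887) and that of pdia3 with only the groups compared (0.0571). Between the mutants, creld2 was lost with library size only (0.0607) and ddit3 with limma-voom (0.0708). Without both lhb/lhcgr mutant 3 and 4, of the called genes of these lists only serpinh1a was still called.

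**Figure D5:**
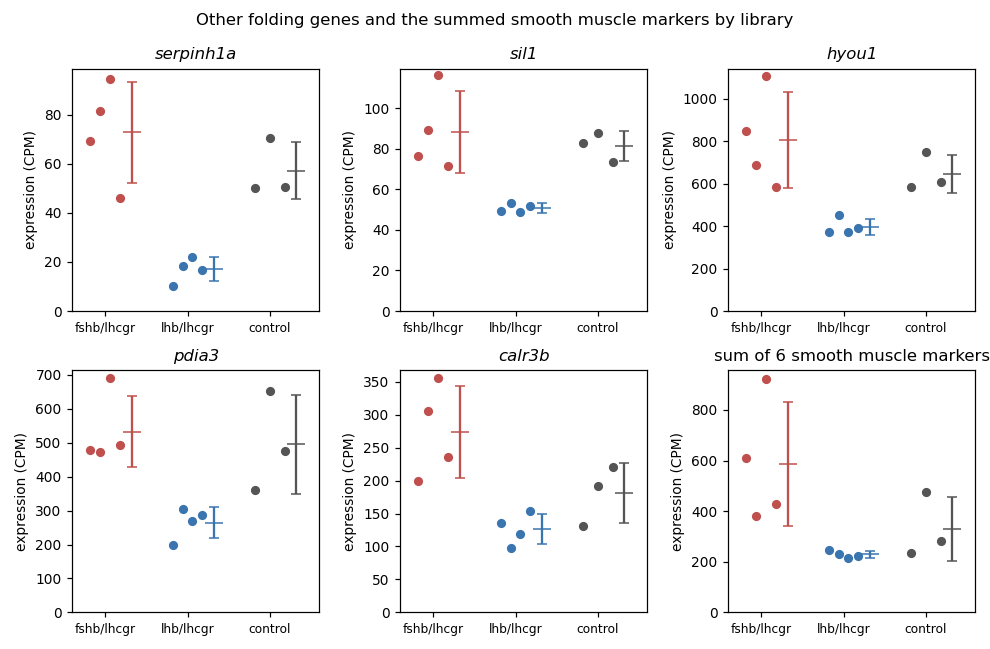
CPM of 5 folding genes outside the name rule (serpinh1a, sil1, hyou1, pdia3, calr3b) and the summed CPM of 6 smooth muscle markers in each library (points) with the mean and SD of each group (bars); fshb/lhcgr mutants left, lhb/lhcgr mutants in the middle, controls right. In serpinh1a, sil1, hyou1 and pdia3 all 4 lhb/lhcgr libraries lie below the others, and the marker sum there is 217 to 247 CPM, with 1 control inside that range.

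Markers of other cell types moved beside these genes. The 6 smooth muscle markers summed to 381 to 922 CPM in the fshb/lhcgr mutants, 217 to 247 CPM in the lhb/lhcgr mutants and 235 to 475 CPM in the controls, and the 5 endothelial markers to 90.9 to 178, 63.7 to 68.3 and 110 to 195 CPM. The 10 skeletal muscle markers reached 20.4 to 35.5, 9.35 to 13.7 and 10.4 to 21.0 CPM, the 6 macrophage markers 38.0 to 60.7, 57.4 to 114 and 14.7 to 65.0 CPM, and the erythrocyte markers 94.7 to 175, 63.2 to 136 and 27.3 to 82.5 CPM. None of these markers was at 0 in all libraries. Between lhb/lhcgr mutants and controls, the smooth muscle, endothelial and skeletal muscle markers differed in direction within their lists. Smooth muscle sums were mostly acta2 and myh11a, which differed by -0.39 and -0.98 there, while cnn1b differed by -0.85, tagln by -0.002 and desmb by 0.99. Of these, myh11a was called (edgeR adjusted p = 0.0142). Of the endothelial markers kdrl had the highest CPM (-1.51), while flt1 differed by -1.79, cdh5 by -0.96, pecam1 by -0.32 and tie1 by 0.50. Called among them were kdrl and flt1 (edgeR adjusted p = 0.00518 and 0.0126). Of the skeletal muscle markers acta1a and acta1b differed by -1.48 and -1.06 and the 4 others tested by 0.50 to 1.11, with a median of 0.68 over the 6 tested and of -0.31 between the mutants. Only acta1a was called among them, as lower against the controls (edgeR adjusted p = 0.0388) and higher between the mutants (2.85, adjusted p = 0.00313). For fshb/lhcgr against lhb/lhcgr mutants, 4 of 5 smooth muscle markers tested were positive (median 1.24), as were 5 of 5 endothelial markers (median 1.00). In each of these lists 2 markers were called higher, beside 1.45% of all genes. For fshb/lhcgr mutants against controls, 6 of 6 erythrocyte markers were positive (median 1.46), as were 5 of 5 smooth muscle markers (median 0.85). Groups did not overlap in 5 and 2 of them, beside 5.26% of all genes (higher), and 0 were called. There the endothelial markers (2 positive, 3 negative) and the skeletal muscle markers (3 and 3) were split. In summed markers the lhb/lhcgr libraries were thus lowest for endothelium, and for smooth muscle below every other library except 1 control, while they were also lowest in dnajb11, serpinh1a and sil1, and the part of these cells in the differences was not tested. The granulosa and theca markers were split as well, with 5 positive and 4 negative for lhb/lhcgr mutants against controls. Among them fshr was called higher (1.91, edgeR adjusted p = 0.0220) and star lower (-1.67, adjusted p = 0.0309). Mitochondrial transcripts took 6.0% to 11.5% of the counts in the fshb/lhcgr mutants, 5.28% to 7.67% in the lhb/lhcgr mutants and 6.20% to 12.3% in the controls.

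The authors' deposited tables give a log2 fold change and an unadjusted p for each mutant against the controls. In the authors' deposited table for fshb/lhcgr mutants, 77 members are listed with a p and 8 are under 0.05, beside 7.95% of the 27531 genes listed with a p, among them hsp70.2 (p = 0.000491) and hsp70.1 (p = 0.00716). In the authors' deposited table for lhb/lhcgr mutants, 76 members have a p and 16 are under 0.05, beside 18.5% of 27833 genes. The smallest authors' p of a member was that of dnajb12b (2.54e-05). It was followed by hspbap1 (2.90e-05), dnajb11 (6.58e-05), dnajc19 (0.00133), dnajc6 (0.00136) and dnajc9 (0.00429). Of these, dnajb12b, dnajc19 and dnajc6 were not called in the main edgeR fit.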

How the data were processed

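Poly(A) RNA of fully grown zebrafish follicles was sequenced from 11 libraries after Trizol extraction and TruSeq library preparation, per the labels' protocols. The authors deposited raw counts per gene, FPKM values (1 fixed length per gene), and tables with log2 fold changes and unadjusted p-values. The same tables hold group mean signal values scaled by the authors in a way the file headers do not state, and these were not used. DESeq2 1.20.0 appears in the submitters' processing notes. Aligner, counting tool, strand use and build: not given in the sources used here. Coordinates and sequences are therefore not printed, and reads of near-identical copies or overlapping genes may be shared.

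Counts were tested as deposited with edgeR 4.0.16 in R 4.3.3. After filterByExpr (minimum count 10, minimum total 15) 19421 genes were left. TMM scaling and 1 robust quasi-likelihood fit with a mean per group served all 3 comparisons (common biological coefficient of variation 0.384). A gene was called at a Benjamini-Hochberg adjusted p under 0.05. A positive log2 difference is higher in the group named first, the SE is the difference divided by the root of the F statistic, and tests were 2-sided. FPKM served only for levels. On simulated data with the real libraries, a log2 change of 1 was recovered in 17% of 100 genes for fshb/lhcgr mutants against controls and in 12% for lhb/lhcgr mutants, and a change of 2 in 54% and 57%. No other genes were changed in the simulation, so these rates are not the sensitivity of the real comparisons.

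The members and all lists were chosen with earlier results of these data known. The roles were assigned after the values were seen. Named are the kept inducible and constitutive members, called members, the 3 most positive and most negative per comparison, the 5 with the highest control FPKM, the hsf genes, and up to 5 called genes of each other folding list in each comparison, with lhb, lhcgr and fshb as a check. Members named beyond this, such as dnajb12a, dnajb14, dnajc1, dnajc3a, dnajc3b, dnajc10 and dnajc11b, the other organelle members and the single markers, were chosen after their values were seen. In all, 22 alternatives were run: RLE, upper quartile and size-only scaling, other filters, DESeq2 1.42.0, limma-voom (limma 3.58.1), only the groups compared, the replicate block, length offsets, each library left out, and both lhb/lhcgr mutant 3 and 4 left out.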

Additional observations from a re-analysis of the deposited data

Results flagged for a closer look

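In 7 of 102 groups of 4 libraries checked (6.86%, where chance gives about 1 in 20), 1 library stood apart from the other 3 beyond Dixon's limit for the gap over the range. In the fshb/lhcgr mutants, replicate 1 was high for hsf1 (38.5 CPM, the others 33.8 to 34.2) and for hspa4b (165 CPM, the others 128 to 132). Replicate 2 was high for hspb8 (8.90 CPM, the others 3.70 to 4.46), and replicate 3 was low for the chaperonin gene hspd1 (209 CPM, the others 301 to 312). In the lhb/lhcgr mutants, replicate 1 was low for hsp70.1 (6.88 CPM, the others 11.9 to 12) and for hsp90aa1.1 (1.03 CPM, the others 1.34 to 1.39). Replicate 3, the library with the most counts, was high for hsp90aa1.2 (34.8 CPM, the others 2.53 to 3.85).

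The effect on dnajb11 differed between the mutants. Both effects are measured from the same controls, and their difference, 0.89 on the log2 scale (SE 0.15, edgeR adjusted p = 0.00958), is the direct comparison of fshb/lhcgr with lhb/lhcgr mutants.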

How the results depend on the processing

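For lhb/lhcgr mutants against controls the 3 called members became 7 with DESeq2, 5 with limma-voom, and 0 without lhb/lhcgr mutants 3 and 4 together. All genes were called there at 14%, 7.06% and 0.648%, beside 7.34% in the main fit. Leaving out 1 library gave 0 (without lhb/lhcgr mutant 4) to 4 members, beside 1.55% to 7.16% of all genes. For fshb/lhcgr mutants against controls 0 members were called in each of the 22 alternatives, beside 0.00492% to 1.43% of all genes. Between the mutants the 1 called member became 2 with library size only, 7 with DESeq2, 3 in a fit of the 2 groups compared only and 0 without lhb/lhcgr mutants 3 and 4 together. All genes were called there at 2.67%, 7.21%, 4.92% and 0.136%, beside 2.37% in the main fit. Leaving out 1 library gave 1 to 3 members, beside 0.542% to 3.91% of all genes. With the replicate number as a block 3, 0 and 1 members were called in the order just used, beside 4.86%, 0.0412% and 2.21% of all genes. Against controls the lhb/lhcgr mutant calls of dnajc9 (adjusted p = 0.0528), sugt1 (0.0552), hsbp1b (0.0692), sil1 (0.0729), ern1 (0.0799) and serpinh1b (0.0806) were lost with that block. Same-numbered libraries correlated in their deviations at r of -0.128 to 0.191, with 5 of 10 pairs over 0.1 and a median of 0.088. For different numbers 6 of 30 pairs were over 0.1, with a median of -0.040. In 9 of 20 checks a library correlated best with its own number. These are the numbers of the sample titles. The library names carry other numbers, and pairing by those was not checked. The labels name no pairing and the main fit used none, and these correlations do not decide whether the libraries are paired. Of 123 differences of named members, 37, none of them called, changed sign in at least 1 alternative, at sizes up to 0.76. In hsp90aa1.2, 0.08 for lhb/lhcgr mutants against controls became -1.67 without lhb/lhcgr mutant 3. In dnajb9b, 0.76 for fshb/lhcgr mutants against controls was -0.074 without fshb/lhcgr mutant 3 (edgeR adjusted p = 0.972) and up to 1.07 without another library; the cause was not tested. Over all genes, 1426 calls for lhb/lhcgr mutants against controls became 2727 with DESeq2. They became 817 in a fit of the 2 groups compared only and 792 with length offsets. The split of 562 higher and 864 lower became 848 and 578 with library size only. Simulation recovered changes of size 1 in 12% to 17% of genes. Only 100 genes were changed by that size there and 100 by 2, fewer than the 1426 calls for lhb/lhcgr mutants against controls. The threshold after adjustment depends on how many genes change, so these rates are not the sensitivity of the real comparisons.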
